A study of Homo sapiens with 28 samples.

Results

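The band 19p12 of chromosome 19, with the adjoining part of 19p13.11, holds a run of zinc finger genes of the KRAB class, and 34 of them, listed by symbol from ZNF14 to ZNF254, are described here in human pluripotent cell lines. The 34 were listed with results of these arrays in view, in particular the difference between embryonal carcinoma (EC) and embryonic stem (ES) cells, which makes this a set chosen by measured values (the log2 levels of EC and ES arrays); that difference is therefore given as a description, and where limma's calls of it are counted among the members, nothing is read from the count. The data are 14 Affymetrix Human Exon 1.0 ST arrays, each summarised by transcript cluster (22011 clusters) and by probeset, a group of probes that usually lies within 1 exon (287329 probesets). ES lines come from embryos and EC lines from germ cell tumours, and before RNA was taken the cells had been selected by flow cytometry for SSEA3, a surface marker of pluripotent cells. The 6 ES arrays are of H14, Shef5, Shef6, Shef3, H9 and Shef7, grown on mouse embryo fibroblasts inactivated with mitomycin C, in knock-out DMEM that held serum replacement and FGF. The 5 EC arrays on plastic are of NCCIT, 2102Ep, 833KE, TERA1 and NTERA2, grown in high-glucose medium with fetal calf serum. NTERA2, 2102Ep and 833KE were also grown on feeders in ES medium, which gives 3 further EC arrays. Each line is 1 array per growth condition, so the spread within a group is a spread between lines, and in the comparison of EC on plastic with ES the cell type, the surface and the medium differ together. No group is a genetic model, and fewer cells that transcribe a gene cannot be told apart from less RNA per cell.

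KRAB zinc finger proteins bind DNA through an array of C2H2 fingers, and their KRAB domain recruits the corepressor TRIM28, which brings in the histone methyltransferase SETDB1 and with it the repressive mark H3K9me3. Many of them bind transposable elements and keep these silent in pluripotent cells; ZNF91 is known for repressing SVA elements and ZNF93 for repressing L1 elements. The genes of 19p12 arose by repeated tandem duplication in primates, lie among beta satellite repeats and remain similar in sequence, which bears on how an array can tell them apart.

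Of the 34 genes, 9 had a transcript cluster annotated to their symbol alone: ZNF14, ZNF738, ZNF493, ZNF43, ZNF208, ZNF99, ZNF675, ZNF681 and ZNF254. A further 20 appeared only in clusters that carry several symbols (ZNF506, ZNF253, ZNF93, ZNF682, ZNF90, ZNF737, ZNF626, ZNF66, ZNF85, ZNF430, ZNF714, ZNF431, ZNF429, ZNF100, ZNF257, ZNF676, ZNF729, ZNF98, ZNF492 and ZNF91), and 5 in no cluster (ZNF486, ZNF708, ZNF730, ZNF724 and ZNF726). At exon level 21 genes had probesets of their own, 197 in all and 4 to 18 per gene, which adds ZNF253, ZNF93, ZNF682, ZNF626, ZNF85, ZNF430, ZNF431, ZNF429, ZNF100, ZNF257, ZNF676 and ZNF91. The other 13 genes had no measurement of their own. No filter on low values was applied. From the first to the last of these genes, RefSeq lists 38 protein-coding genes on GRCh38.p14, 34 of which are members. All values are on the log2 scale of the authors' RMA summaries, where 1 unit is a factor of 2, and a level is read only against the same gene on other arrays.

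The sequence before the start of these genes shows how alike the family is, and 5 examples follow. ZNF208 and ZNF257 are neighbours with large differences between EC and ES, ZNF43 and ZNF254 are family members with smaller ones, and ZNF14 lies at the edge of the run. Each line gives the 250 bases before the transcript start, 5′ to 3′ along the gene's strand, from RefSeq on GRCh38.p14, and capitals mark CCAAT (the CCAAT box), GGGCGG (the GC box) and CCGGAAG (the ETS core) on either strand.
ZNF208: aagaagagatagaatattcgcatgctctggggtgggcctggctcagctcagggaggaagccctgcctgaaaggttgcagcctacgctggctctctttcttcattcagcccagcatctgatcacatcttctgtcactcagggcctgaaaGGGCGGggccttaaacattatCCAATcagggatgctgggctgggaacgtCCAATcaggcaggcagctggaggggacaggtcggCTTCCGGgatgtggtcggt
ZNF257: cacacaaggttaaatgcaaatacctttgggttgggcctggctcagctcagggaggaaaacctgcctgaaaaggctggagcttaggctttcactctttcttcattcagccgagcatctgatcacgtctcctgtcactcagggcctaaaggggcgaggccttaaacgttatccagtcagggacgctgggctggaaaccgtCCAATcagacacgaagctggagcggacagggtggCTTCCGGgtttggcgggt
ZNF43: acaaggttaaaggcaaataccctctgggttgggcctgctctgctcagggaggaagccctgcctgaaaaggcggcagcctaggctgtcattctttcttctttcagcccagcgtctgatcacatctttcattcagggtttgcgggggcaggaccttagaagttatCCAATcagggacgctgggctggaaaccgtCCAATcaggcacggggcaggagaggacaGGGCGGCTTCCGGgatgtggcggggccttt
ZNF254: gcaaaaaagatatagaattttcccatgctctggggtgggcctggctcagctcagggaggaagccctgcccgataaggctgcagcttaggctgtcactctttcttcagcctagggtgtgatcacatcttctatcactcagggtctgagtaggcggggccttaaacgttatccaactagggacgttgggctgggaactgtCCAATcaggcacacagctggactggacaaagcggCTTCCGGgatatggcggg
ZNF14: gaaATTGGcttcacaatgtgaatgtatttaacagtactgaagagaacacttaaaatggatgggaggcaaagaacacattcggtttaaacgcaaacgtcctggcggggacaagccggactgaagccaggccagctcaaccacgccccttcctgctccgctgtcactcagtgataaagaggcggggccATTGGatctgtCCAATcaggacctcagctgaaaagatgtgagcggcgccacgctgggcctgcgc

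These windows lie at chr19:22010944-22011193 (minus strand) for ZNF208, chr19:22052234-22052483 (plus strand) for ZNF257, chr19:21836183-21836432 (minus strand) for ZNF43, chr19:24086937-24087186 (plus strand) for ZNF254 and chr19:19733113-19733362 (minus strand) for ZNF14, each directly upstream of the first exon. RefSeq promoters were matched for 27 of the 34 genes (28 entries). The longest run of bases that a member's window shared with that of ZNF208, on the same strand, had a median of 27 bases over the 27 other entries and reached 46 in ZNF254 and in ZNF85; in ZNF14 it was 11. CCAAT, the box bound by the factor NF-Y, stood in all 27 genes and at least 2 times in 20 of them, against 32.0% and 9.53% of all 35116 promoters of the same length. GGGCGG, the GC box of Sp factors, stood in 20 genes (42.6% of all promoters) and CCGGAAG, the core that ETS factors bind, in 19 (8.52%). The palindromic NRF1 motif, the cyclic AMP response element TGACGTCA and the YY1 core GATGGC were found in 0 of the 27 (1.03%, 1.65% and 9.25% of all promoters). No matches of the first 3 motifs overlapped one another. CG dinucleotides numbered 3 to 13 per window with a median of 8, against a median of 11 over all promoters (quartiles 3 and 23). The windows of ZNF208, with a large difference on the arrays, and of ZNF254, with a smaller one, thus share a run of 46 bases, the longest length found. ZNF676 and ZNF99, described below, had no matched promoter. No relation between sequence and the differences on the arrays was tested. Letter matches of motifs describe the sequence and are not evidence of binding.

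At gene level all 9 clusters were higher on average in EC on plastic than in ES, by 0.73 to 5.17, with a median of 1.04 against 0.0046 over all clusters. With EC on feeders 7 of the 9 were higher and 2 lower, with a median of 0.33 against 0.042; ZNF43, at 0.034, was at -0.099 after quantile normalisation and at -0.0032 with array medians subtracted. Both comparisons use the same 6 ES arrays. ZNF208 and ZNF99, zinc finger genes that lie close together, stood apart, with differences of 5.17 and 3.69 on plastic and 4.62 and 2.48 on feeders.

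On the 6 ES arrays the ZNF208 cluster (3856646) lay between 3.91 and 6.19 with a median of 4.31. On plastic it read 6.71 in NCCIT, 10.59 in 2102Ep, 11.65 in 833KE, 10.61 in TERA1 and 10.03 in NTERA2. On feeders it read 9.58 in 2102Ep, 10.26 in 833KE and 8.24 in NTERA2. Every EC array was above every ES array, and NCCIT was the lowest of the EC arrays. Without NCCIT the difference on plastic was 5.97. The means were 4.75 ± 1.00 in ES (SD, n = 6), 9.92 ± 1.88 in EC on plastic (SD, n = 5) and 9.36 ± 1.03 in EC on feeders (SD, n = 3), which puts the EC means 36.0-fold and 24.5-fold above ES. The values of this cluster equalled those of 1 of the gene's 8 probesets (3856668) on each of the 14 arrays, to within 0.0001, so the gene-level value of ZNF208 rests on that probeset. The same holds for 21.5% of all clusters and for none of the 8 other member clusters.

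ZNF99 (cluster 3856908) lay between 1.98 and 2.89 in ES, with a median of 2.68. It read 5.64 in NCCIT, 6.87 in 2102Ep, 6.11 in 833KE, 6.68 in TERA1 and 5.93 in NTERA2 on plastic. On feeders it was at 6.60 in 2102Ep, 4.38 in 833KE and 4.12 in NTERA2. All EC arrays were again above all ES arrays, with means of 2.55 ± 0.38 in ES (SD, n = 6), 6.25 ± 0.52 on plastic (SD, n = 5) and 5.03 ± 1.36 on feeders (SD, n = 3). The ES values lie under the 25th percentile of each array's clusters (4.51 to 4.59), so the 12.9-fold difference on plastic starts from a dim signal.

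**Figure D1:**
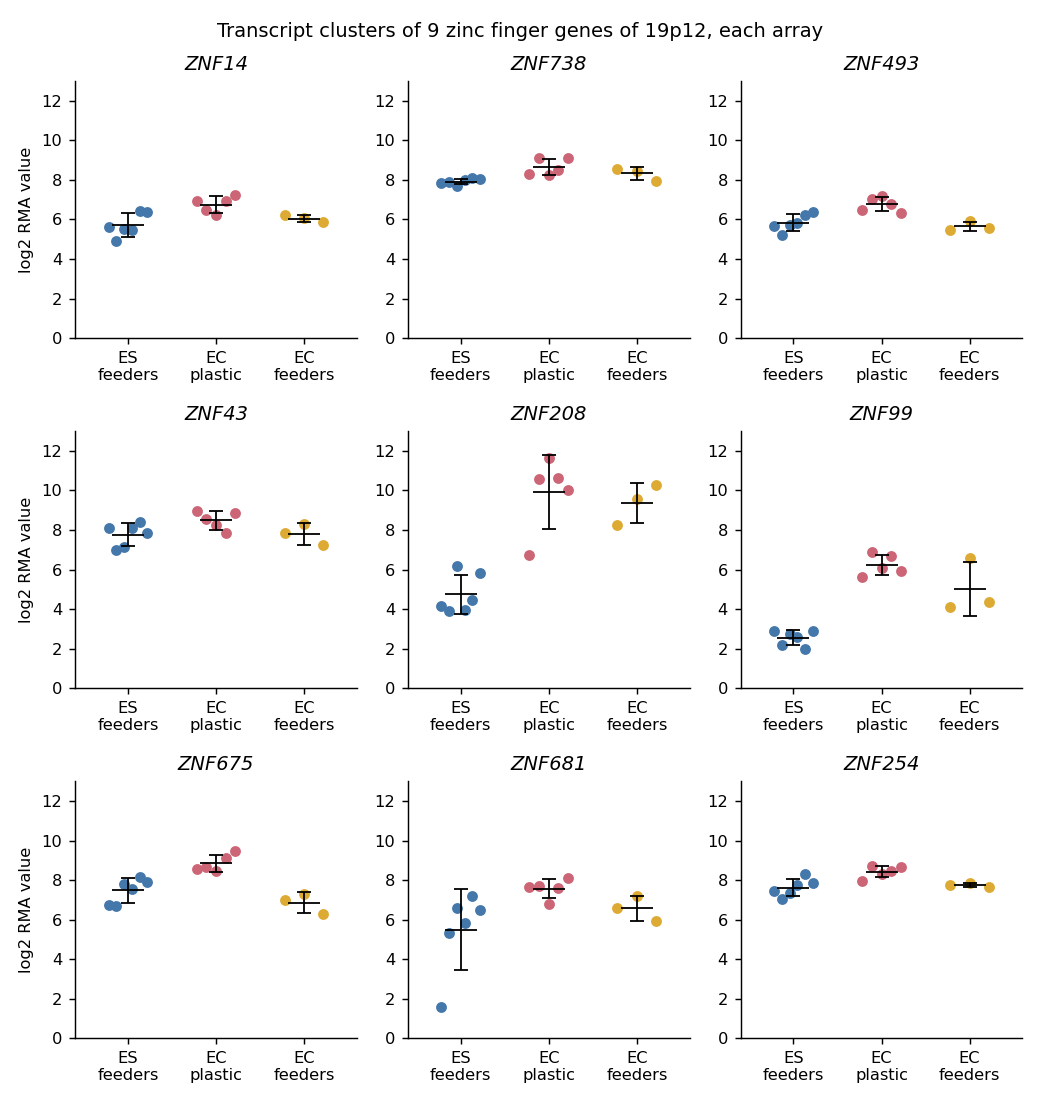
Log2 RMA value (vertical axis, 0 to 13) of the transcript clusters of 9 zinc finger genes of 19p12 on each array, with points for arrays and black marks for the mean and SD of ES on feeders (n = 6), EC on plastic (n = 5) and EC on feeders (n = 3). ZNF208 and ZNF99 have every EC array above every ES array; the other 7 genes shift by 0.73 to 2.07 between ES and EC on plastic.

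For ZNF681 the ES arrays ran from 1.58 in H14 to 7.20 in H9, with a median of 6.17, and the EC arrays on plastic read 7.63 in NCCIT, 7.73 in 2102Ep, 6.79 in 833KE, 7.59 in TERA1 and 8.13 in NTERA2. On feeders it stood at 7.20 in 2102Ep, 5.91 in 833KE and 6.61 in NTERA2. The groups overlapped, with H14 far below the other ES arrays, which lay at 5.32 or above. The difference on plastic was 2.07, and 1.28 without H14. ZNF675, also known as TIZ, an inhibitor of the signalling adaptor TRAF6, lay between 6.68 and 8.16 in ES with a median of 7.69. Its EC arrays on plastic read 8.57 in NCCIT, 8.67 in 2102Ep, 8.44 in 833KE, 9.13 in TERA1 and 9.49 in NTERA2, all above ES. On feeders the 3 lines read 7.30 in 2102Ep, 6.27 in 833KE and 7.02 in NTERA2, within or below the ES range, so that the mean difference from ES changed from 1.38 to -0.62.

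ZNF14 lay between 4.89 and 6.43 in ES (median 5.56), at 6.93 in NCCIT, 6.46 in 2102Ep, 6.21 in 833KE, 6.91 in TERA1 and 7.26 in NTERA2 on plastic, and at 6.07, 5.86 and 6.21 on feeders in 2102Ep, 833KE and NTERA2. Of the EC arrays on plastic 4 were above all ES arrays, and 0 of those on feeders. ZNF493 lay between 5.23 and 6.37 in ES (median 5.78), at 6.50, 7.03, 7.20, 6.80 and 6.35 in NCCIT, 2102Ep, 833KE, TERA1 and NTERA2 on plastic, and at 5.91, 5.58 and 5.45 on feeders in 2102Ep, 833KE and NTERA2. Its difference from ES was 0.93 on plastic and -0.20 on feeders, the second within the SD of the ES lines (0.41).

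ZNF254 lay between 7.03 and 8.31 in ES (median 7.59), at 7.98, 8.72, 8.34, 8.46 and 8.67 in NCCIT, 2102Ep, 833KE, TERA1 and NTERA2 on plastic, and at 7.87, 7.68 and 7.75 on feeders in 2102Ep, 833KE and NTERA2. ZNF738 had the narrowest ES range, 7.71 to 8.07 (median 7.93), and read 8.28, 9.09, 8.26, 8.52 and 9.12 on plastic and 8.47, 7.96 and 8.56 on feeders in the same order of lines. All 5 EC arrays on plastic and 2 of 3 on feeders exceeded its ES range. ZNF43 lay between 6.98 and 8.40 in ES (median 7.98), at 8.97, 8.55, 8.24, 7.84 and 8.87 on plastic and at 8.31, 7.22 and 7.87 on feeders, with overlapping groups in both comparisons. H9 was the highest of the ES lines for ZNF14, ZNF738, ZNF43, ZNF675, ZNF681 and ZNF254.

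Counted against all clusters, limma called 5 of the 9 as higher in EC on plastic (ZNF208, ZNF99, ZNF675, ZNF493 and ZNF738) and 0 as lower, where 3.26% of all clusters were called higher and 1.34% lower (718 and 294 clusters, or 578 and 439 after quantile normalisation). The EC arrays on plastic lay wholly above the ES arrays for 4 of the 9 (2.85% of all clusters). With EC on feeders 2 of the 9 were called higher, ZNF208 and ZNF99, against 1.56% of all clusters, and the same pair lay wholly above ES (5.78%). These counts follow from values with which the genes were listed and are no test of them. With the array codes of the labels taken into account (H14, Shef5 and the feeder arrays of NTERA2 and 2102Ep carry codes up to 13, all other arrays later ones), 3 of 9 were called on plastic, and 2 among later-coded arrays alone. There the 9 differences on plastic ran from 0.61 (ZNF43) to 4.81 (ZNF208), and that of ZNF681 was 1.04. Without H14, Shef5, Shef6 or 2102Ep the count on plastic was 3, without Shef3 or TERA1 it was 2, and without Shef6, Shef3, H9 or Shef7 the count on feeders was 1.

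At exon level each gene was summarised by the median of its probesets on each array. In EC on plastic 20 of 21 genes were higher than in ES and 1, ZNF431, was lower (-0.28), with a median difference of 1.14 against 0.033 over all probesets. In EC on feeders 13 were higher and 8 lower, with a median of 0.15 against 0.056. Along the chromosome, 4 genes stood out in both growth conditions: ZNF208, ZNF257, ZNF676 and ZNF99, which are the 4 measured genes between ZNF43 and ZNF91. Between them or beside them lie ZNF729, ZNF98, ZNF492, ZNF730 and ZNF724, which have no measurement of their own. This grouping was made after the values were seen.

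**Figure D2:**
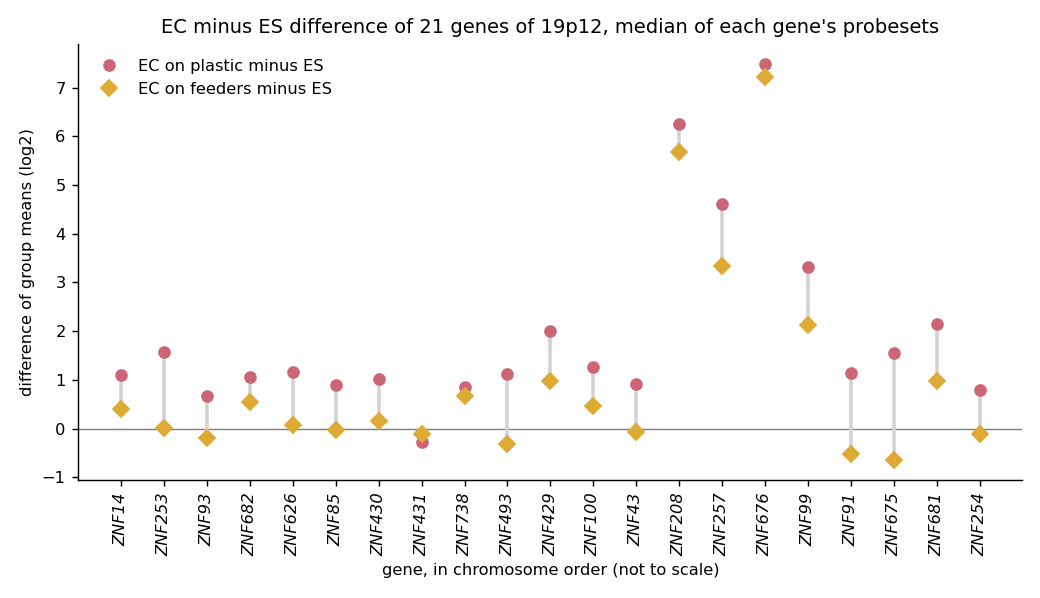
Difference of group means on the log2 scale (vertical axis) for 21 zinc finger genes in chromosome order (horizontal axis, not to scale), each gene as the median of its probesets; circles are EC on plastic minus ES, diamonds EC on feeders minus ES. ZNF208, ZNF257, ZNF676 and ZNF99 lie between 2.12 and 7.49 in both; the other 17 genes lie between -0.28 and 2.15 on plastic and between -0.64 and 0.98 on feeders.

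ZNF676 had the largest difference. Its 8 probesets had a median between 1.84 and 3.03 on the ES arrays (median 2.48), against 5.68 in NCCIT, 11.209 in 2102Ep, 11.12 in 833KE, 10.88 in TERA1 and 10.77 in NTERA2 on plastic. On feeders it read 10.18 in 2102Ep, 9.86 in 833KE and 8.92 in NTERA2. The means differed by 7.49 on plastic and 7.21 on feeders, and NCCIT lay between the ES lines and the other EC arrays.

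ZNF257 (9 probesets) lay between 2.73 and 4.72 in ES (median 3.95), at 7.57 in NCCIT, 8.52 in 2102Ep, 8.58 in 833KE, 8.89 in TERA1 and 8.89 in NTERA2 on plastic, and at 7.50 in 2102Ep, 6.81 in 833KE and 7.31 in NTERA2 on feeders. The groups did not overlap, and the differences were 4.62 and 3.34. For ZNF208 the median of 8 probesets was 2.51 to 4.45 in ES (median 3.26), 6.62, 10.43, 10.66, 10.46 and 9.81 in NCCIT, 2102Ep, 833KE, TERA1 and NTERA2 on plastic, and 9.18, 10.06 and 7.83 on feeders in 2102Ep, 833KE and NTERA2, with differences of 6.25 and 5.68. ZNF99 (5 probesets) differed by 3.31 and 2.12. The ES means of these 4 genes, 2.44 to 3.87, lie under the 25th percentile of each array's probesets (4.62 to 4.96).

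Within the 4 genes the probesets did not all carry the same difference. Of their 30 probesets, 29 were higher in EC on plastic and 29 in EC on feeders, against 53.1% and 54.8% of all probesets; the 4 genes were picked for the size of this difference, which fixes the count. In ZNF676 the 8 differences on plastic ran from 3.87 to 8.71 and in ZNF99 the 5 ran from 2.68 to 3.92. ZNF208 ran from 1.71 to 7.03; the smallest was at a probeset (3856674) that was bright in ES (9.45 ± 0.48, SD, n = 6). ZNF257 ran from -0.14 to 7.13. Its probesets 3826814 and 3826816 differed by 0.56 and -0.14, and the second was at 8.99 ± 0.70 in ES (SD, n = 6) and 8.85 ± 0.28 in EC on plastic (SD, n = 5). Transcripts of similar genes can bind the same probes, and whether that sets the ES signal at these probesets was not tested.

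**Figure D3:**
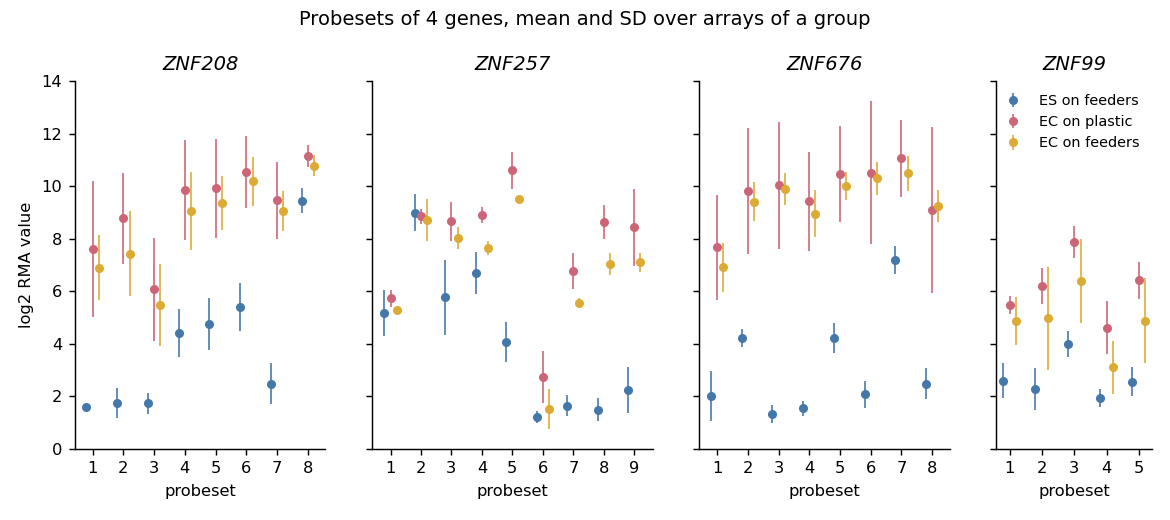
Log2 RMA value (vertical axis, 0 to 14) of the 30 probesets of ZNF208, ZNF257, ZNF676 and ZNF99, numbered within each gene by probeset identifier; points are group means and bars SDs for ES on feeders (n = 6), EC on plastic (n = 5) and EC on feeders (n = 3). EC means lie above ES at 29 of 30 probesets; the second probeset of ZNF257 is bright in all 3 groups.

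The other 17 genes lay within a narrower range. Their differences had a median of 1.09 on plastic, from -0.28 (ZNF431) to 2.15 (ZNF681), and a median of 0.019 on feeders, from -0.64 (ZNF675) to 0.98 (ZNF429). Of their 167 probesets, 161 were higher in EC on plastic and 82 in EC on feeders (53.1% and 54.8% of all probesets). ZNF91, the repressor of SVA elements, lay between 7.49 and 9.33 in ES (median 8.52) over 18 probesets, at 9.32, 9.54, 9.36, 9.54 and 9.67 in NCCIT, 2102Ep, 833KE, TERA1 and NTERA2 on plastic, and at 8.11, 7.86 and 7.53 on feeders in 2102Ep, 833KE and NTERA2. Its 5 plastic arrays lay close together (SD 0.14), 4 of them above all ES arrays, while the feeder arrays were in the lower part of the ES range. ZNF93, the repressor of L1 elements, differed by 0.66 on plastic and -0.19 on feeders over 13 probesets, with an ES range of 7.44 to 9.19 and a plastic range of 8.17 to 9.88.

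ZNF429 differed by 2.01 on plastic and 0.98 on feeders, with all 5 plastic arrays (6.26 to 7.37) above the ES arrays (4.01 to 6.21). ZNF253 differed by 1.58 and 0.019, also with no overlap on plastic (7.77 to 8.58 against 5.25 to 7.48). In ZNF430 the plastic arrays of 2102Ep, 833KE, TERA1 and NTERA2 lay at 7.30 to 7.68, above the ES range of 5.93 to 6.51, and NCCIT at 6.25 was inside it. ZNF738 was the only one of the 17 genes with all 3 feeder arrays (8.24 to 9.13) above all ES arrays (7.87 to 8.15), with a difference of 0.66. At gene level the same holds for 5.78% of all clusters, so nothing is read from this 1 gene of ZNF738. Its cluster had 2 of 3 feeder arrays above all ES arrays. ZNF626, ZNF85, ZNF682 and ZNF100 differed by 1.17, 0.90, 1.07 and 1.26 on plastic and by 0.075, -0.031, 0.55 and 0.46 on feeders. ZNF431 lay between 6.28 and 7.02 in ES, 5.97 and 6.84 on plastic and 6.38 and 6.74 on feeders, so that the groups overlapped throughout.

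The 14 clusters that carry several symbols, at least 1 of them a member, cannot be assigned to a gene. In 6 of them every symbol is a member; 5 of these 6 were higher in EC on plastic, with differences from -0.17 to 3.93 and a median of 0.98.

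By array, the median deviation of the 17 genes from the ES mean was -0.45 (Shef5) to 0.78 (H9) in ES, 0.85 (833KE) to 1.32 (TERA1 and NTERA2) in EC on plastic, and 0.60, -0.11 and -0.054 on feeders in 2102Ep, 833KE and NTERA2. H14 and Shef5, the ES arrays with earlier codes, were the lowest ES arrays, at -0.33 and -0.45. For ZNF208, ZNF257, ZNF676 and ZNF99 the median deviation was -0.44 to 0.58 in ES, 3.26 in NCCIT, 5.74 to 6.07 in the other 4 lines on plastic, and 3.96 to 4.87 on feeders. All EC arrays were thus above ES for the 4 genes, while for the 17 the feeder arrays lay inside the ES range.

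**Figure D4:**
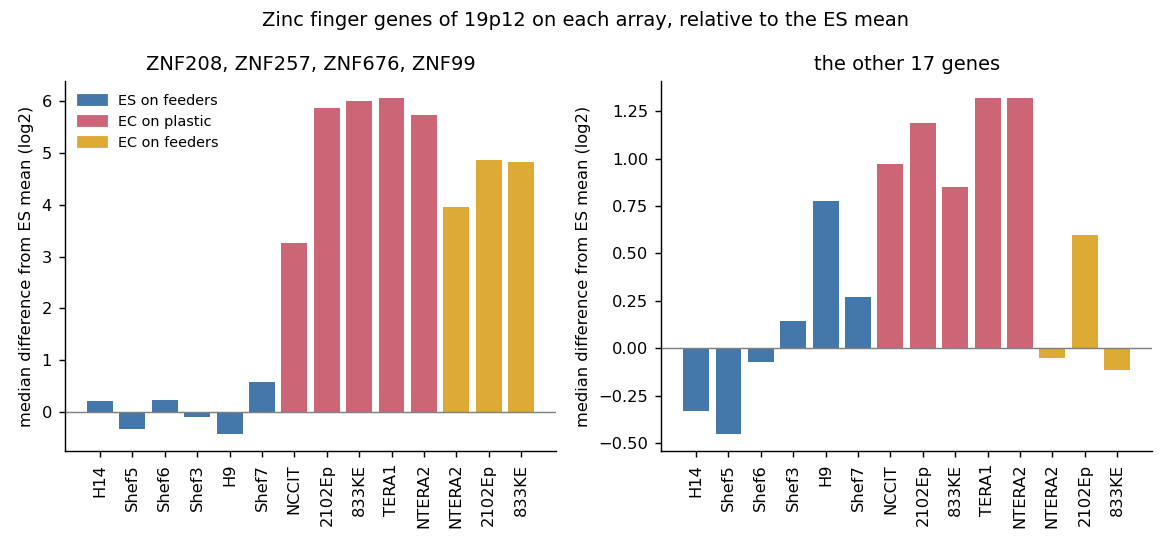
Median difference from the ES mean on the log2 scale (vertical axes, with different ranges) on each of 14 arrays, over ZNF208, ZNF257, ZNF676 and ZNF99 (left) and over the other 17 genes with probesets (right); colours mark the groups. On the left the 8 EC arrays lie at 3.26 or above; on the right the 3 feeder arrays lie between -0.11 and 0.60, inside the ES range.

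Growth on feeders and on plastic was compared within 2102Ep, 833KE and NTERA2, with the line as a block. The surface and the medium differ together here and cannot be told apart. This comparison was not used to list the genes, although its 3 plastic arrays also enter the contrast that was. Genes listed with high values on plastic in view are thereby favoured to be lower on feeders. The counts and p-values of members in this comparison are therefore a description. All 9 clusters were lower on feeders, by 0.50 to 2.0, and in each of the 3 lines, where 18.1% of all clusters were lower in each line. limma called 0 of the 9 and 0 of 22011 clusters after Benjamini-Hochberg adjustment (0.0% lower); at an unadjusted p below 0.05 all 9 were lower, against 7.86% of all clusters. The median of the 9 differences was -0.97, against 0.022 over all clusters.

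ZNF675 had the smallest p. Its feeders minus plastic differences were -1.36 in 2102Ep, -2.17 in 833KE and -2.47 in NTERA2, a mean of -2.0 (SE 0.26, n = 3 pairs, limma adjusted p = 0.237), lower in 3 of 3 lines. ZNF208 differed by -1.01, -1.38 and -1.78 in the same lines (mean -1.39, SE 0.21, limma adjusted p = 0.237). The remaining 7 had adjusted p-values from 0.237 to 0.304, with ZNF99 at -1.27, ZNF493 at -1.21, ZNF681 at -0.97, ZNF254 at -0.81, ZNF43 at -0.75, ZNF14 at -0.60 and ZNF738 at -0.50. In 833KE, the one line with later codes on both arrays, the 9 differences ran from -2.17 to -0.30. For 2102Ep and NTERA2 the code and the growth condition cannot be told apart.

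At exon level 189 of the 197 probesets were lower on feeders on average and 168 in each of the 3 lines (19.6% of all probesets). limma called 0 of 197, as it did for all probesets (0.0% lower), and 136 had an unadjusted p below 0.05, against 12.7% of all probesets in either direction. By gene, 20 of the 21 medians were lower in all 3 lines, with ZNF431 the exception (-0.095 in 2102Ep, 0.61 in 833KE and 0.058 in NTERA2). Of the 7 probesets of ZNF431, however, 5 were lower on feeders on average and 4 in each of the 3 lines. The median over the 21 genes was -0.79 in 2102Ep, -1.27 in 833KE and -1.48 in NTERA2, against 0.057, -0.072 and -0.018 over all probesets. The 4 genes ZNF208, ZNF257, ZNF676 and ZNF99 differed by -1.28 to -1.46 and the other 17 by a median of -1.05. On feeders all 4 remained above every ES array, as did 1 of the 17 (ZNF738). The 4 were picked for the size of their difference from ES, which fixes their part of this count. At gene level 5.78% of all clusters lay wholly above ES on feeders, and nothing is read from the 1 of 17. By its cluster, ZNF738 had only 2 of the 3 feeder arrays above every ES array. ZNF91 differed by -1.69, ZNF253 by -1.66 and ZNF93 by -0.98.

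**Figure D5:**
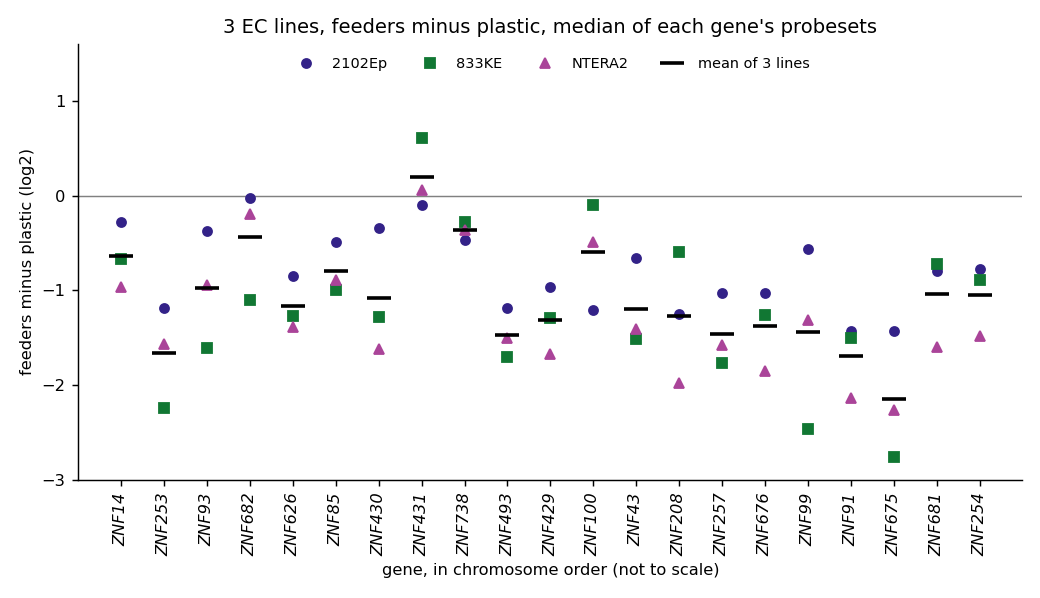
Feeders minus plastic on the log2 scale (vertical axis) for 21 zinc finger genes in chromosome order (not to scale), each as the median of its probesets; symbols mark 2102Ep, 833KE and NTERA2 and black bars their mean. All 3 lines lie below 0 for 20 genes, from -2.76 upwards; ZNF431 has values on both sides of 0.

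The 3 EC lines were compared with one another over both growth conditions by limma's moderated F test, 2 arrays a line. It called 0 of the 9 clusters (64 of 22011 clusters, 0.291%), and 4 of the 9 had an unadjusted p below 0.05 (19.5% of all clusters). ZNF208 came closest (adjusted p = 0.102): NTERA2 was 0.95 below 2102Ep and 1.82 below 833KE, and 833KE was 0.87 above 2102Ep. With dim clusters left out it was called (adjusted p = 0.0488). For ZNF99 833KE and NTERA2 were 1.49 and 1.71 below 2102Ep (adjusted p = 0.176). ZNF681 and ZNF738 were lower in 833KE, by 1.11 and 0.67 against 2102Ep (adjusted p = 0.186 and 0.206). At exon level 0 of 197 probesets were called (0.18% of all), with 32 at an unadjusted p below 0.05 (16.0% of all).

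Other zinc finger genes were taken from lists by position. The 116 other ZNF genes of chromosome 19 with a cluster of their own (117 clusters) had a median difference of 0.29 in EC on plastic and of -0.071 on feeders. On plastic limma called 14 higher and 1 lower, where 3.26% and 1.34% of all clusters were called. On feeders it called 1 higher and 1 lower, where 343 and 161 of all 22011 clusters were called. On feeders against plastic their median was -0.42, and 60.7% were lower in each of the 3 lines, against 18.1% of all clusters. ZNF genes of other chromosomes (159 genes, 163 clusters) had medians of 0.24 on plastic, 0.084 on feeders and -0.15 between feeders and plastic, with 38.7% lower in each line. Of these 163 clusters limma called 23 higher and 2 lower on plastic, and 5 higher and 0 lower on feeders. The medians of both lists were smaller in size than those of the 9 clusters of 19p12, with the same sign on plastic and between feeders and plastic, and no test of the difference between the lists was made.

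The zinc finger genes of 7q11.21, a second run of related genes, had 6 of 12 members measured. These 6 also belong to the list of ZNF genes of other chromosomes, so their calls are counted there too. Their median difference was 1.48 on plastic, 0.31 on feeders and -0.82 between feeders and plastic, and 5 of 6 were lower on feeders in each line. On plastic limma called 3 as higher, where 3.26% of all clusters were: ZNF680 (3.07, adjusted p = 0.0171), ZNF107 (1.75, adjusted p = 0.00464) and ZNF273 (1.73, adjusted p = 0.00940). It called 0 on feeders, where 1 had an unadjusted p below 0.05. This list, like the members, was chosen with earlier results of these data known, so its calls are a description. Genes without a ZNF symbol were taken beside the run, the nearest 10 measured before ZNF14 and the nearest 10 after ZNF254, at any distance. Their medians on plastic were -0.061 and -0.088. limma called 1 and 0 as lower and 0 as higher in both, where 1.34% of all clusters were called lower. The 1 was HAPLN4, a link protein of hyaluronan and proteoglycans (-0.70).

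Among 29 of 32 listed genes of the KRAB corepressor and heterochromatin machinery, 2 rose in EC on plastic and 0 fell (median 0.11), where 3.26% of all clusters were called higher. HDAC1, a histone deacetylase of the NuRD complex, rose by 0.81 (adjusted p = 0.00893), and ATRX, a chromatin remodeller that deposits histone H3.3 at repeats, by 0.62 (adjusted p = 0.0330). On feeders HDAC1 rose by 0.86 (adjusted p = 0.0250) and was the only one called, where 1.56% of all clusters were called higher. TRIM28 itself differed by -0.61 on plastic (adjusted p = 0.191) and 0.025 on feeders (adjusted p = 0.977), and SETDB1 by 0.63 (adjusted p = 0.0735) and 0.72 (adjusted p = 0.119). Between feeders and plastic limma called 0 of the 29, and 4 had an unadjusted p below 0.05, a share near that of all clusters (14.9%); the smallest p-values were those of SMARCAD1, a remodeller (-0.88, adjusted p = 0.275), and EHMT1, a histone methyltransferase (0.48, adjusted p = 0.30).

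Across the series, array medians ran from 6.19 to 6.39 at gene level and from 6.45 to 6.80 at exon level. Of 16 pluripotency markers 11 were measured at gene level, and LIN28A, DNMT3B, PODXL, SALL4 and DPPA4 had group means above 10 in all 3 groups. GDF3, a growth factor of the TGF-beta family, was the one marker that limma called, higher in EC by 3.49 on plastic (adjusted p = 0.00870) and 3.50 on feeders (adjusted p = 0.0188). Of all clusters 3.26% were called higher on plastic and 1.56% on feeders. Between feeders and plastic the 11 markers had a median of -0.29, with 0 called and 4 lower in each of the 3 lines; L1TD1 (-0.89), SALL4 (-0.65) and DPPA4 (-0.59) were lower at an unadjusted p below 0.05, the same sign as the zinc finger genes. Fibroblast markers, which feeder cells could supply as far as mouse RNA binds human probes, were measured for 15 of 16 genes (16 clusters). Their mean level per array was 5.86 to 6.71 in ES, 5.33 to 5.73 in EC on plastic and 5.80 to 6.17 in EC on feeders. limma called 3 of the 16 clusters lower in EC on plastic against ES, where 1.34% of all clusters were called lower. Between feeders and plastic the median was 0.30 with 0 called and 6 higher at an unadjusted p below 0.05 (7.02% of all clusters). The 6 were VIM (1.23), COL6A1 (1.06), PDGFRB (0.81), FN1 (0.76, cluster 2598261), COL1A2 (0.75) and COL1A1 (0.51), and 0 were lower at that threshold. VIM, FN1 (the same cluster), COL6A1 and THY1 were bright in ES, with means of 9.59, 9.37, 8.95 and 8.90. FAP, DCN and LUM were dim in every group (means of 1.59 to 2.55). Differentiation markers had a mean level per array of 5.54 to 6.64 in ES, 5.28 to 5.78 on plastic and 5.63 to 5.98 on feeders. Of these 9 limma called 2 lower in EC on plastic (1.34% of all clusters). The part of these marker levels in the zinc finger results was not tested.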

How the data were processed

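RNA of 14 cultures was hybridised to Affymetrix Human Exon 1.0 ST arrays. The authors deposited log2 values per transcript cluster and per core probeset, summarised by RMA (background correction, quantile normalisation, median polish) with Affymetrix Expression Console, per the submitters' processing notes; the genome build is not given in the sources used here. These log2 values were used as deposited. Members and lists were chosen with earlier results of these data known. Clusters and probesets were named from GEO's platform annotation (one symbol: 14432 clusters, 261273 probesets; several: 2408 and 9155; none: 5171 and 16901), and a gene was described only from features with its symbol alone. Gene order and promoters come from RefSeq (GRCh38.p14).

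limma 3.58.1 (R 4.3.3; lmFit, eBayes, two-sided, Benjamini-Hochberg adjustment over all features of a table, threshold 0.05) compared EC on plastic with ES, EC on feeders with ES, EC on feeders with the same 3 lines on plastic (line as a block) and the 3 lines (moderated F test, growth condition as covariate). The code was tested on simulated data. The line pairs the arrays, being the same cell line in both conditions. Deviations from the mean of the 3 lines in each condition correlated between same-line arrays at 0.41 (2102Ep), 0.34 (833KE) and 0.51 (NTERA2). All other pairs were below 0, which this centring favours once same-line pairs are positive. Member genes were to be named with all arrays where they had the 6 largest or 3 lowest differences on plastic, which covers all 9, or the smallest p in the other comparisons; corepressor genes were named where called, otherwise the 2 with the smallest p, and TRIM28, SETDB1 and the genes named at exon level were chosen after their values were seen. Alternatives were quantile normalisation, subtraction of array medians, leaving out features under the 25th percentile of means, trend and robust eBayes, each array left out, the array code (up to 13 or later), all arrays in one fit, and, after seeing the data, means of probesets in place of medians. Nothing in the labels says that arrays come from repeated cultures of a line, and precision is limited by how few arrays there are.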

Additional observations from a re-analysis of the deposited data

Results flagged for a closer look

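Of 42 groups of member values with 4 to 10 arrays, 4 held an array whose gap to the nearest other exceeded the limit of Dixon's test, which chance gives in about 1 in 20 groups. The ZNF681 cluster was at 1.58 in the ES line H14, with the other ES lines at 5.32 to 7.20. The 3 others were values of the EC line NCCIT on plastic, as medians of probesets: ZNF676 at 5.68 (other lines 10.77 to 11.209), ZNF257 at 7.57 (8.52 to 8.89) and ZNF430 at 6.25 (7.30 to 7.68). In ZNF676 and ZNF257 NCCIT remained above every ES array, and in ZNF430 it lay inside the ES range.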

How the results depend on the processing

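The count of 5 member clusters called on plastic became 3 with the array code in the fit, 2 among later-coded arrays and 3 with only the 3 lines also grown on feeders, and 2 to 7 with 1 array left out. The count of 2 on feeders became 1 with dim features left out, where ZNF99 is no longer tested, 1 with the array code in the fit and 1 among later-coded arrays, and 1 to 2 with 1 array left out. Both counts describe the contrasts with which the genes were listed and support nothing about them. Between feeders and plastic 0 members were called in the alternatives run, and without the line as a block (no pairing of arrays) the count was also 0; the block changed no other call of a member. Among the 3 lines the count of 0 became 1 (ZNF208) with dim features left out.

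Signs changed only for clusters that were not called, in EC on feeders against ES. Among later-coded arrays, where EC is 833KE alone, assumed to vary like the ES lines, ZNF254 was at -0.14, ZNF14 at -0.083, ZNF43 at -0.65 and ZNF681 at -0.62. ZNF43 was also at -0.099 after quantile normalisation, at -0.0032 with array medians subtracted, and at -0.22, -0.12 and -0.089 without 2102Ep, Shef5 and Shef6. The cause was not tested. As means of probesets the differences of ZNF208, ZNF257 and ZNF676 on plastic were 5.23, 3.56 and 6.62. Over all clusters the calls ran from 527 to 1257 on plastic (main 1012), 167 to 662 on feeders (504), 0 to 11 between feeders and plastic (0) and 0 to 349 among lines (64). Over all probesets they were 8080, 2739, 0 and 516 as deposited, and 7735 to 9538, 3291 to 3295, 0 and 758 to 1974 in the alternatives.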
